A study of Mus musculus with 12 samples.

Results

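The receptor chains for cytokines and interferons that liver cells are known to carry were followed through a mouse model of fulminant hepatitis. They were 10 genes chosen by name: Il6ra, Il6st, Osmr, Lifr, Il4ra, Il13ra1, Il10rb, Ifngr1, Ifngr2 and Ifnar1. All 10 were among the 11289 genes measured by RNA sequencing of liver tissue from 12 C57BL/6J mice. The mice, aged 8 to 10 weeks per the labels and male per the study's methods, formed 3 groups of 4. Control mice received no concanavalin A (Con A), and the labels do not say what, if anything, they were given in its place. Con A + PBS mice received 15 mg/kg of the lectin Con A, which activates T cells, through the tail vein, and phosphate-buffered saline intravenously 30 min later. Con A + hWJ-MSCs mice, called cell-treated mice here, received the same lectin and, 30 min later, 2000000 human mesenchymal stem cells from the Wharton's jelly of the umbilical cord. All livers were taken at 24 h. Cell number and age are given as in the labels, and the study's methods state others. The infused cells were human and the recipients mice. Each animal carried the same inbred background, and no transgene or deletion is named for any group.

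Receptors of this kind have no enzyme of their own. A ligand brings chains together, Janus kinases bound to their inner ends phosphorylate each other and the receptor, and STAT factors dock there, are phosphorylated and go to the nucleus. In liver, interleukin-6 acts through Il6ra and the shared chain gp130, the product of Il6st, to drive the acute phase response of hepatocytes. Oncostatin M and leukaemia inhibitory factor use gp130 with Osmr or Lifr, interleukin-4 and interleukin-13 use Il4ra with Il13ra1, and interferon-γ uses Ifngr1 with Ifngr2. Ifnar1 with Ifnar2 receives type I interferons, and Il10rb is shared by the receptors for interleukin-10, interleukin-22 and type III interferons.

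Of the 10 genes, 2 groups lay close together in the genome (GRCm38, GENCODE M21). On chromosome 15, the start of the Osmr transcript (chr15:6813577-6874969, minus strand, 18 exons) was 279 kb from that of Lifr (chr15:7154353-7197489, plus strand, 19 exons). On chromosome 16, Il10rb (chr16:91406164-91425822, plus strand), Ifnar1 (chr16:91485238-91507441, plus strand) and Ifngr2 (chr16:91547072-91565169, plus strand) followed each other with 79.1 kb and 61.8 kb between their starts. The others were on separate chromosomes, with Il6ra at chr3:89869324-89913162 on the minus strand. Il4ra was at chr7:125552282-125579472, Ifngr1 at chr10:19591949-19610229, Il6st at chr13:112464070-112510086 and Il13ra1 at chrX:36112110-36171259, all on the plus strand. The Il10rb transcript in the table is annotated as subject to nonsense-mediated decay, and 20.4% of its bases overlap the exons of Gm21970. For Il6ra the overlap was 6.22%, with Gm42809, and for Il4ra it was 0.837%, with Gm44876. Whether the counting used strand is not given in the sources used here, so the values of Il10rb and Il6ra may hold reads of the overlapping genes.

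RefSeq (GRCm38.p6) gave the 250 bases before the start of 9 of the 10 genes, all but Il10rb. Of these windows, 3 are shown because they belong to genes called after Con A and differ in sequence composition. The Lifr window belongs to the member that fell most, was 82.4% G or C and held 43 CG pairs, which are in capitals. The transcript of Lifr in the table starts further downstream than this RefSeq start. The Osmr window is not upstream of the transcript measured, since it lies inside the gene with all 250 bases in Osmr exons. The Il4ra and Il6ra windows are upstream of theirs but overlap other exons. Of the Il4ra window, 151 bases lie in exons of other Il4ra transcripts, and the Il6ra window lies wholly in exons of Gm42809. The window of Ifngr1, the ligand-binding chain for interferon-γ, was 59.2% G or C with 11 CG pairs. That of its partner Ifngr2 was 74% G or C with 25 CG pairs, and its capitals mark letters that match a STAT6 site.
Lifr, chr15:7129322-7129571, plus strand: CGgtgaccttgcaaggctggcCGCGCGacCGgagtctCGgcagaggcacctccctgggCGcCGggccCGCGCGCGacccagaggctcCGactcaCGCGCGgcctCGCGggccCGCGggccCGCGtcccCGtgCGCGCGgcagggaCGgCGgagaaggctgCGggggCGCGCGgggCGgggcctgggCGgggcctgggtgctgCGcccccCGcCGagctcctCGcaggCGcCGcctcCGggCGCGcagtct
Ifngr1, chr10:19591699-19591948, plus strand: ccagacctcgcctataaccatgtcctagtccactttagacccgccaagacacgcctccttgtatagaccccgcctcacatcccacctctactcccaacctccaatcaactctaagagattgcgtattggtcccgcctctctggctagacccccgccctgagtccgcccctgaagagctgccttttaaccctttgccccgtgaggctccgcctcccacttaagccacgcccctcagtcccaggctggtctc
Ifngr2, chr16:91546809-91547058, plus strand: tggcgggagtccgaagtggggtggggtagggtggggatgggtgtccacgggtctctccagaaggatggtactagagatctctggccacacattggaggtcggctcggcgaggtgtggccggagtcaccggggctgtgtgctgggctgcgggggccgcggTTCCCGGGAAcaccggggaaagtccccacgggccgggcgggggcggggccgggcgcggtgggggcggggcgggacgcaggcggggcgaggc

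The windows were searched on both strands for 4 motifs. The interferon gamma activated site (TTCNNNGAA) and the core of the interferon-stimulated element (GAAA, any 2 bases, GAAA) were in none of the 9 genes' windows, nor was the AP-1 site (TGANTCA). These letters were present in 7.01%, 2.97% and 6.75% of 32817 windows of the same length. The STAT6 site (TTC, any 4 bases, GAA) was present in 5.85% of all windows and, among the members, in that of Ifngr2, 91 bases upstream. For Lifr, the window of the other RefSeq start was 50.8% G or C with 3 CG pairs and also held none of the motifs. Ifngr1 and Ifngr2 thus differed in composition and in the STAT6 letters although both rose after Con A.

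The values are whole numbers that had already been normalised between mice, with a median of 352 in every mouse, and the depth of sequencing behind them is unknown. The lowest value of any member was 66, for Osmr in a Control mouse, and all 4 Control values of Osmr were below the lower quartile of all genes, at 144 to 145. Every gene of the table reached 64 in at least 2 mice, and all 10 members did so in the Control group alone. Over all genes, the first 2 principal components held 64.8% and 13.5% of the variance. The mouse Con A + PBS replicate 4 stood apart on the second, at -55.2 against -15 to 7.57 for the others of its group. Without it the counts of members called in each comparison were the same as those given here. Hepatocyte markers were high in all livers. The mice are separate animals, and the p-values set differences between groups against the spread between mice within groups, with the mice taken as unpaired.

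Con A altered the receptor chains in both directions. Osmr, the oncostatin M receptor chain, rose 6.52-fold, and Lifr, the chain for leukaemia inhibitory factor, fell 3.72-fold. Both interferon-γ receptor chains and Il13ra1 rose between 1.52-fold and 1.76-fold, and Il6ra fell 1.56-fold. A gene was called where the limma adjusted p was below 0.05 and the fold change above 1.5, which gave 4 members up and 2 down of 10. Over all genes, 19.5% were called up and 19.2% down. For 6 of the 10 members the Control and Con A + PBS mice did not overlap, as for 50.4% of all genes. The median log2 fold change was 0.39 over the members and 0.05 over all genes.

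**Figure D1:**
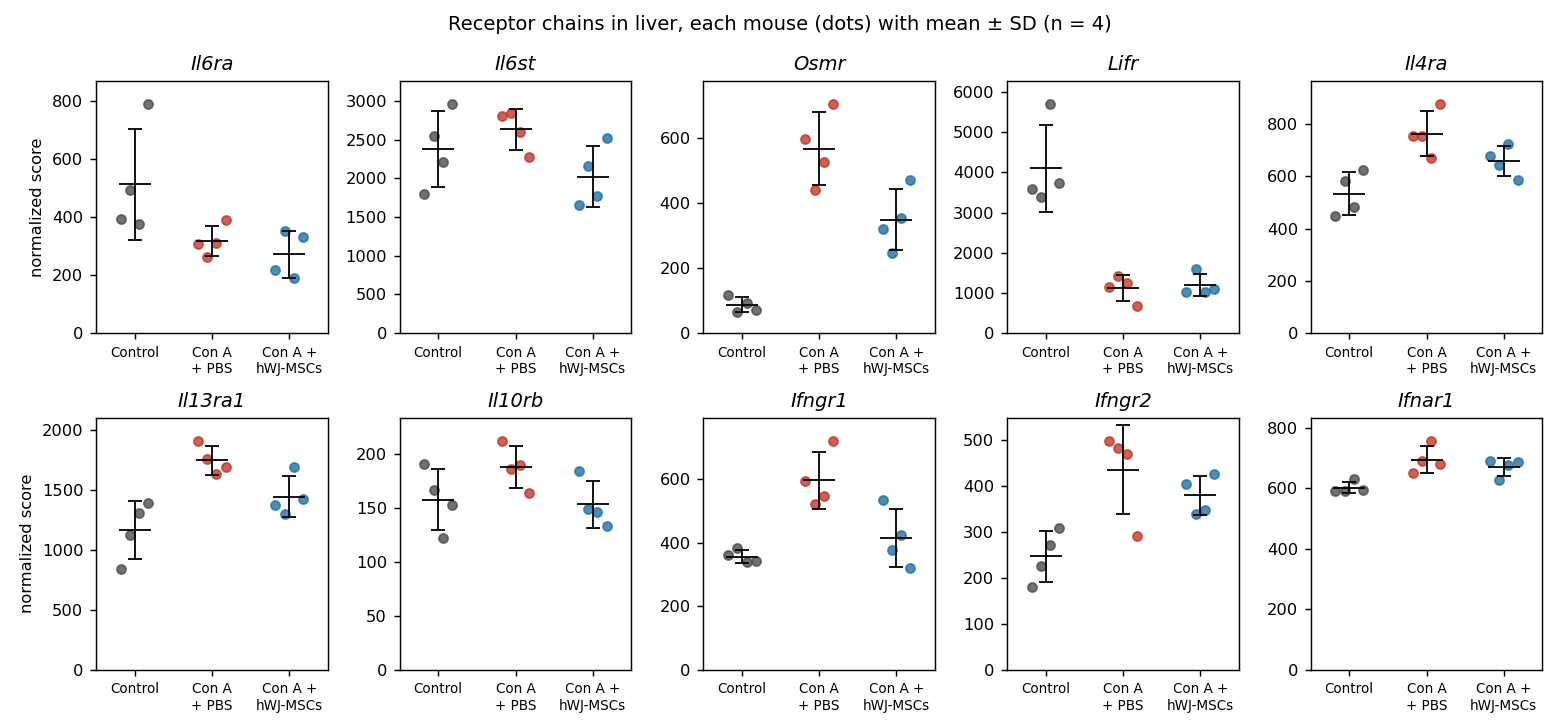
Normalised expression value (vertical axes, starting at 0) of the 10 receptor chains in each of the 12 mice, with 1 dot per mouse and bars for the mean and SD of each group (n = 4). Osmr ran from 66 to 118 in Control and from 439 to 704 in Con A + PBS mice, while Lifr ran from 3386 to 5704 and then from 666 to 1418.

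Osmr pairs with gp130 to make the receptor that carries oncostatin M signals in mice. Its values were 118, 66, 92 and 72 in the Control mice, 597, 439, 527 and 704 in the Con A + PBS mice, and 320, 246, 354 and 471 in the cell-treated mice. Every injected mouse was above every Control mouse, and the cell-treated range reached into the lower end of the Con A + PBS range. The mean was 87 ± 23.5 in Control and 567 ± 112 in Con A + PBS mice (SD, n = 4 each), a log2 fold change of 2.71 (SE 0.22, adjusted p = 1.87e-06). With any 1 mouse left out it stayed between 2.59 and 2.86.

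Lifr binds leukaemia inhibitory factor and, with gp130, signals for it. The 4 Control mice had 3576, 3386, 5704 and 3728, the Con A + PBS mice 1138, 1418, 1253 and 666, and the cell-treated mice 1029, 1600, 1026 and 1095. No injected mouse came near the Control range, and the injected groups lay over each other. The log2 fold change after Con A was -1.89 (SE 0.24, adjusted p = 4.54e-05), and it stayed between -2.03 and -1.66 with any 1 mouse left out. Osmr and Lifr, whose starts are 279 kb apart, therefore went in opposite directions.

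Il6ra, which binds interleukin-6 before gp130 joins, had 394, 494, 376 and 790 in the Control mice. It had 306, 263, 311 and 390 in the Con A + PBS mice, and 216, 352, 190 and 331 in the cell-treated mice. The Control and Con A + PBS ranges overlapped, with Control replicate 4 far above the rest. The fall after Con A, a log2 fold change of -0.64 (SE 0.25), only just passed the test (adjusted p = 0.0458). It no longer did so when Control replicate 4 was left out, with a log2 fold change of -0.41 and an adjusted p of 0.139. The call was also lost without Control replicate 2 (adjusted p = 0.0795), Con A + PBS replicate 1 (0.0858), replicate 2 (0.106) or replicate 3 (0.0801), or Con A + hWJ-MSCs replicate 1 (0.0516).

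Il6st, the signalling chain that all 3 of these receptors share, did not pass the test after Con A. It stood at 1799, 2541, 2211 and 2960 in the Control mice, at 2808, 2848, 2596 and 2276 in the Con A + PBS mice, and at 1650, 2154, 1769 and 2515 in the cell-treated mice. The groups overlapped throughout, and the log2 fold change after Con A was 0.16, with a 95% confidence interval from -0.20 to 0.53 (adjusted p = 0.425).

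The chains for interleukin-4 and interleukin-13 were both higher in the Con A + PBS mice than in any Control mouse. Il4ra, which binds interleukin-4, had 448, 582, 482 and 624 in Control mice, 754, 754, 671 and 878 in Con A + PBS and 680, 645, 723 and 586 in cell-treated mice. Its log2 fold change of 0.52 (SE 0.13, adjusted p = 0.00388) was a 1.44-fold difference, under the fold required, and without Control replicate 4 it was 0.60 and was called (adjusted p = 0.00257). Il13ra1, the chain that joins it to form the receptor used by both interleukins, had 842, 1120, 1304 and 1391 in Control mice. It had 1909, 1752, 1628 and 1686 in Con A + PBS and 1371, 1296, 1686 and 1420 in cell-treated mice. The log2 fold change of Il13ra1 was 0.61 (SE 0.15, adjusted p = 0.00422), just above the fold required. Without Control replicate 1 it was 0.46 (adjusted p = 0.00741) and without Con A + PBS replicate 1 it was 0.56 (adjusted p = 0.0151), both under that fold.

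Both chains of the interferon-γ receptor rose. Ifngr1, the ligand-binding chain, had 361, 384, 338 and 344 in Control mice, 596, 522, 547 and 722 in Con A + PBS and 535, 378, 424 and 322 in cell-treated mice. Control mice lay within a narrow band, all Con A + PBS mice were above it, and the cell-treated mice spread from below that band to inside the Con A + PBS range. The log2 fold change after Con A was 0.73 (SE 0.15, adjusted p = 0.00129). Ifngr2, the chain that brings in the kinase Jak2, had 180, 226, 272 and 308 in Control mice, 498, 483, 468 and 291 in Con A + PBS and 404, 338, 348 and 425 in cell-treated mice. Of the Con A + PBS mice, 3 were far above the Control range and replicate 4 was inside it. The log2 fold change of Ifngr2 was 0.81 (SE 0.19, adjusted p = 0.00353) with all mice and 1.00 without that mouse.

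Ifnar1 and Il10rb were not called after Con A. Ifnar1, a chain of the type I interferon receptor, had 592, 592, 630 and 596 in Control mice, 650, 692, 758 and 681 in Con A + PBS and 692, 628, 679 and 688 in cell-treated mice. The Control and Con A + PBS mice did not overlap, but the difference was small, at 0.20 on the log2 scale with a 95% confidence interval from 0.03 to 0.38 (adjusted p = 0.0509). Il10rb had 190, 166, 122 and 152 in Control mice, 212, 186, 189 and 164 in Con A + PBS and 184, 149, 146 and 133 in cell-treated mice. Its groups overlapped, and its log2 fold change was 0.26, with an interval from -0.06 to 0.59 (adjusted p = 0.151).

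**Figure D2:**
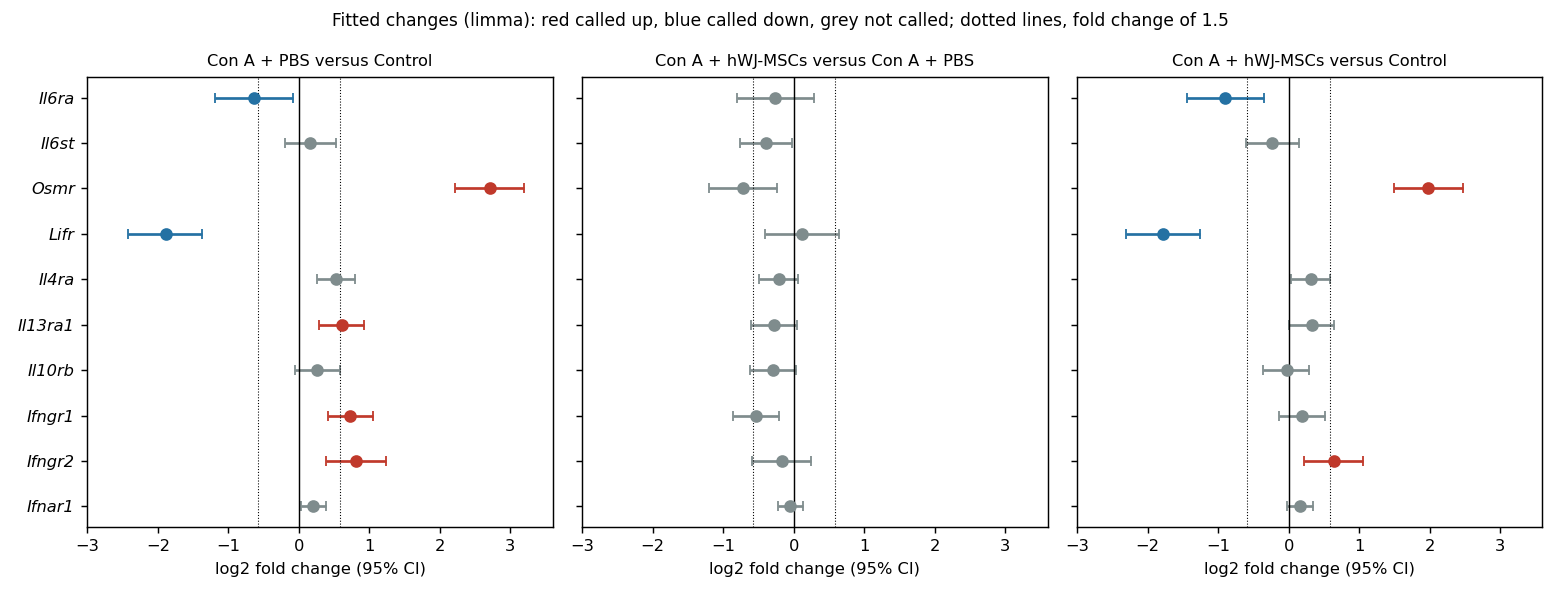
Fitted log2 fold change of each receptor chain (horizontal axis, dots) with its 95% confidence interval (bars) in the 3 comparisons, coloured red where called up, blue where called down and grey where not called, with dotted lines at a fold change of 1.5. After Con A, Osmr lies at 2.71 and Lifr at -1.89, and between the injected groups every dot is grey.

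Levels of different chains were compared per kb of the transcript listed in the table. The step that normalised the values is not known, so whether they scale with transcript length is not known either. Other transcripts may also contribute, with 8 annotated for Lifr and 10 for Il6st. The order between chains is therefore approximate. In Control livers the order was Lifr (424 per kb), Il13ra1 (314), Il6st (274), Ifngr1 (169), Ifnar1 (154), Il6ra (154), Il4ra (102), Ifngr2 (66.5), Il10rb (56.4) and Osmr (15.8). Lifr, Il13ra1 and Il6st overlapped their neighbours in this order and were separated from Ifngr1, and Osmr was below all the others without overlap. In Con A + PBS livers the order per kb was Il13ra1 (470), Il6st (303), Ifngr1 (283), Ifnar1 (178), Il4ra (145), Ifngr2 (117), Lifr (116), Osmr (103), Il6ra (95) and Il10rb (67.3). The 6 chains from Ifnar1 down to Il6ra each overlapped the next. Il13ra1 at the top did not overlap any other chain, and Il10rb at the bottom did not overlap Il6ra but did overlap Lifr. With the cells, Il13ra1 (389 per kb) again stood clear at the top, followed by Il6st (233), Ifngr1 (196), Ifnar1 (172) and Il4ra (125), and Ifnar1 was separated from Il4ra. Lifr (123), Ifngr2 (102), Il6ra (81.4), Osmr (63.3) and Il10rb (54.8) came last and overlapped from each to the next. Lifr had thus gone from the top of the order to the middle, and Osmr was no longer last in either injected group.

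The balance between chains that pair was taken in each mouse as the log2 ratio of their values per kb, as a description without a test. Osmr to Il6st was -3.26, -4.59, -3.91 and -4.68 in Control mice, -1.57, -2.03, -1.64 and -1.03 in Con A + PBS and -1.70, -2.46, -1.66 and -1.75 in cell-treated mice. Lifr to Il6st was 0.84, 0.26, 1.21 and 0.18 in Control mice, -1.46, -1.16, -1.20 and -1.93 in Con A + PBS and -0.83, -0.58, -0.94 and -1.35 in cell-treated mice. By this approximate measure, every Control liver had more Lifr than Il6st per kb, and every injected liver had less. The log2 ratio of Osmr to Lifr averaged -4.73 in Control mice, -0.13 in Con A + PBS and -0.97 in cell-treated mice, and in Con A + PBS replicate 4 it was above 0, at 0.89. Il6ra to Il6st averaged -0.88, -1.68 and -1.54 in the same order of groups. By contrast, Il4ra to Il13ra1 averaged -1.61, -1.69 and -1.63, so these chains kept nearly the same ratio while both were higher. Ifngr1 to Ifngr2 averaged 1.37, 1.29 and 0.92 with ranges that overlapped. Ifnar1 to Ifnar2 ran from -1.60 to -1.19 in Control mice, from -1.13 to -0.38 in Con A + PBS and from -1.96 to -1.04 in cell-treated mice. The ratio of Il10rb to Ifngr2, genes that lie on either side of Ifnar1, averaged -0.22, -0.77 and -0.90.

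**Figure D3:**
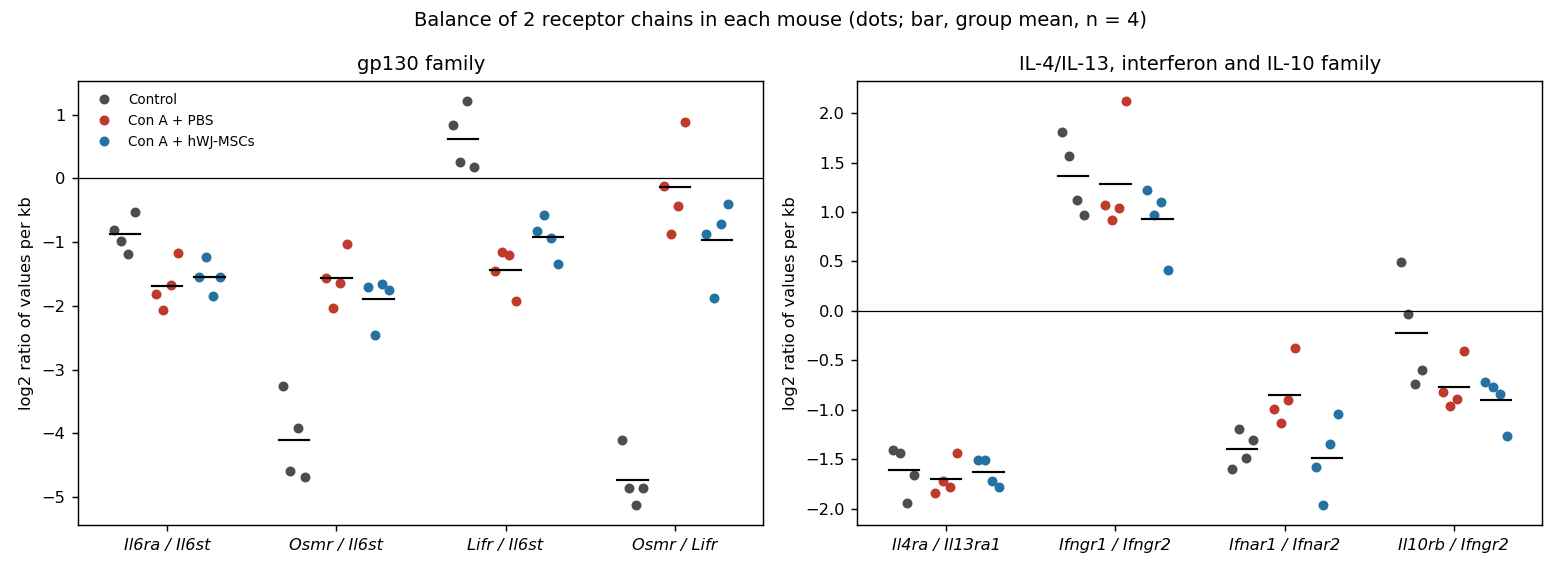
Log2 ratio of the values per kb of paired receptor chains (vertical axis) in each mouse (dots, coloured by group), with bars for the group means (n = 4). Osmr to Il6st moves from a Control mean of -4.11 to -1.57 after Con A, Lifr to Il6st from 0.62 to -1.44, and Il4ra to Il13ra1 stays between -1.61 and -1.69.

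The next comparison asked how the receptor chains differed when hWJ-MSCs followed Con A. None of the 10 was called by limma in either direction, against 4.20% of all genes called up and 4.38% called down, and 3 members had an unadjusted p below 0.05. In 0 of 10 did the injected groups separate without overlap, as they did for 23.5% of all genes. The members' median log2 fold change was -0.27 and that of all genes 0.00. This comparison shares the Con A + PBS mice with the previous one, so the members' changes in the 2 comparisons are not independent.

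Osmr, Ifngr1 and Il6st were the members with an unadjusted p below 0.05, and each was lower with the cells. Osmr had a mean of 348 ± 93.7 against 567 ± 112 (SD, n = 4 each), a log2 fold change of -0.72 (SE 0.22, adjusted p = 0.051). It was called without Control replicate 1 (adjusted p = 0.0364), Con A + PBS replicate 2 (log2 fold change -0.84, adjusted p = 0.0317) or Con A + hWJ-MSCs replicate 4 (-0.88, adjusted p = 0.0279). Leaving out Con A + PBS replicate 4, which stood apart over all genes, gave -0.61 (adjusted p = 0.123). The difference in Osmr between the injected groups therefore sat at the threshold.

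Ifngr1 had a mean of 415 ± 90.4 with the cells against 597 ± 89 without, and Con A + hWJ-MSCs replicate 1, at 535, was the mouse inside the Con A + PBS range. Its log2 fold change was -0.54 (SE 0.15), and the adjusted p of 0.0387 passed while the 1.45-fold difference was under the fold required. It was called without Con A + hWJ-MSCs replicate 1 (-0.67, adjusted p = 0.0341) or without Con A + PBS replicate 2 (-0.60, adjusted p = 0.0284). With 1 mouse left out, the adjusted p was no longer below 0.05 in 7 of 12 fits. These left out Control replicate 3 (0.0515), Con A + PBS replicate 1 (0.0936), replicate 3 (0.0587) or replicate 4 (0.0925), or Con A + hWJ-MSCs replicate 2 (0.108), replicate 3 (0.0821) or replicate 4 (0.062). In a fit of only the 8 mice compared it was 0.0694. Il6st had a log2 fold change of -0.39, with an interval from -0.76 to -0.03 (adjusted p = 0.12).

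Lifr did not pass the test between the injected groups, with a log2 fold change of 0.11 and a 95% confidence interval from -0.41 to 0.64 (adjusted p = 0.765). Its sign turned without Con A + PBS replicate 4, to -0.12 (adjusted p = 0.737), and without Con A + hWJ-MSCs replicate 2, to -0.038 (adjusted p = 0.938). Its 1188 ± 277 with the cells and 1119 ± 323 without were both far under the 4098 ± 1079 of Control mice. For the remaining 6 chains the log2 fold changes lay between -0.30 for Il10rb and -0.05 for Ifnar1, with adjusted p from 0.176 to 0.705. The widest interval among these 6 was that of Il6ra, from -0.80 to 0.29, so a difference as large as its lower bound remained possible with 4 mice a group. Of the 10 chains, 9 had a lower mean with the cells than without, the exception being Lifr, whose direction rested on those 2 mice.

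Cell-treated livers were then set against Control livers. Osmr was still higher, by 1.98 on the log2 scale (SE 0.22, adjusted p = 3.66e-05), and Lifr still lower, by a log2 fold change of -1.78 (SE 0.24, adjusted p = 0.000138). Il6ra was called down, at -0.90 (adjusted p = 0.0134), and Ifngr2 was called up, at 0.64 (adjusted p = 0.0196). That made 2 members up and 2 down of 10, beside 13.6% and 13.1% of all genes. These 4 were also the members whose cell-treated and Control mice did not overlap, which held for 37.9% of all genes. The call of Ifngr2 was lost without Control replicate 1 (log2 fold change 0.50, adjusted p = 0.0546), Con A + hWJ-MSCs replicate 1 (0.61, adjusted p = 0.0515) or Con A + hWJ-MSCs replicate 4 (0.58, adjusted p = 0.0524). Ifngr1 was not called in this comparison, with 0.19 and an interval from -0.13 to 0.52 (adjusted p = 0.321).

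The chromosome 16 cluster was looked at gene by gene, because Ifnar2, Il10rb, Ifnar1 and Ifngr2 follow each other there. After Con A the log2 fold changes along the chromosome were -0.34 for Ifnar2 (adjusted p = 0.151), 0.26 for Il10rb, 0.20 for Ifnar1 and 0.81 for Ifngr2, so only the last of these 4 was called. Ifnar2, the high-affinity chain for type I interferons, had 1405, 1050, 1380 and 1154 in Control mice, 1006, 1184, 1100 and 690 in Con A + PBS and 1618, 1911, 1351 and 1106 in cell-treated mice. It was higher with the cells than without by 0.59 on the log2 scale, short of the threshold (adjusted p = 0.061). Of its bases, 10.3% overlap Gm21970, as part of the Il10rb transcript does. Within 200 kb of a member's start lay 20 other genes of the table. Of these, 4 were called up and 1 down after Con A, beside 19.5% and 19.2% of all genes. They were Adar (log2 fold change 1.77), Tpm3 (1.40) and Atp8b2 near Il6ra, Donson near Ifngr2 and, in the other direction, Dnajc28 (-0.97) near Ifngr2. Atp8b2 and Donson had 0 Control mice at 64, so that their calls were partly set by this minimum. With the cells, Adar (-0.67) and Tpm3 (-0.70) of the 20 were called down, beside 4.38% of all genes. Atp8b2 had 0 cell-treated mice at 64 either and was in the table through Con A + PBS mice alone. Its being highest in that group was set by the minimum, so its call with the cells is not counted.

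**Figure D4:**
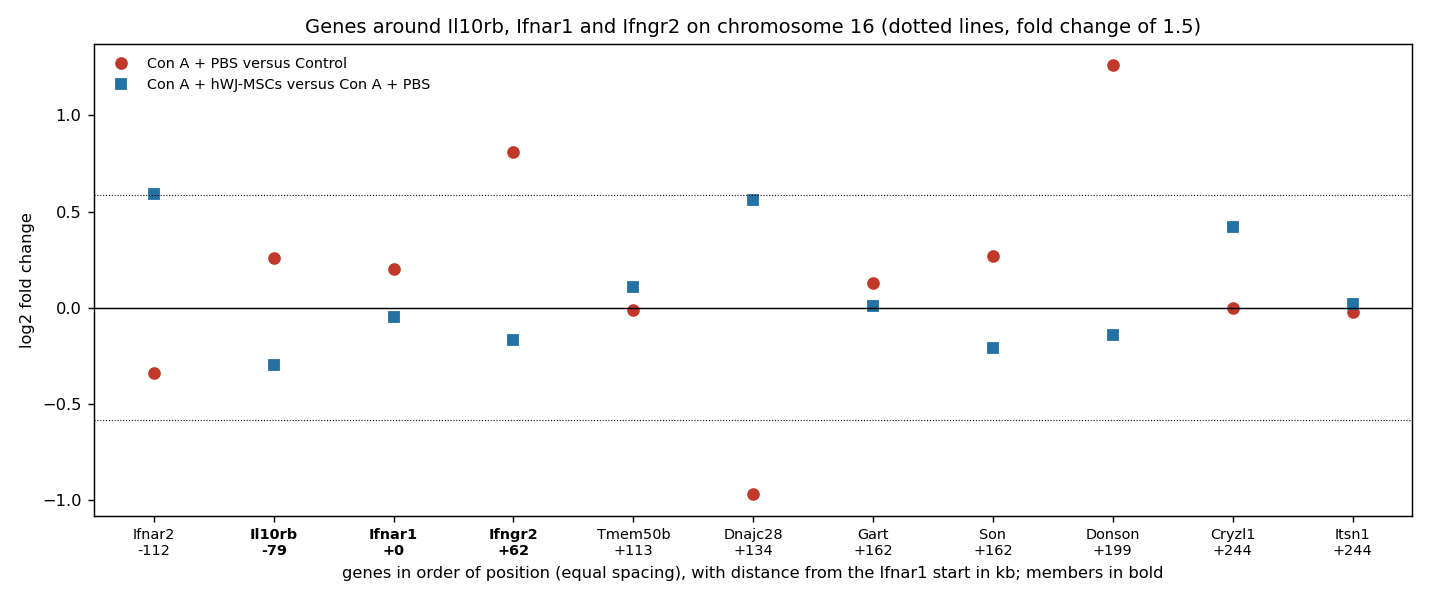
Log2 fold change (vertical axis) of the genes around Il10rb, Ifnar1 and Ifngr2 in order of position (horizontal axis, equally spaced, with the distance from the Ifnar1 start in kb), with circles for Con A + PBS against Control mice, squares for cell-treated against Con A + PBS mice and dotted lines at a fold change of 1.5. After Con A, Ifngr2 (0.81) and Donson (1.26, with 0 Control mice at the table's minimum of 64) are above the upper line, Dnajc28 (-0.97) is below the lower one, and the other genes lie between the lines.

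The genes whose pattern over the 12 mice was nearest to that of each called member were found by the root mean square difference of centred log2 values. For Osmr these were Col4a1 (0.25), a basement membrane collagen, and Glipr2 (0.28). For Lifr they were Lgr5 (0.24), a receptor for R-spondins that amplifies Wnt signals, and Slc38a3 (0.26), a glutamine transporter, both of which are known from hepatocytes around the central vein. Those nearest to Ifngr1 were Rnh1 (0.12), the ribonuclease inhibitor, and Trip10 (0.13), and those nearest to Ifngr2 were Tmem30a (0.14) and Lasp1 (0.16). Il13ra1 had Prkd2 (0.10) and Nub1 (0.11), and Il6ra had Zcchc14 (0.21) and Dip2b (0.22). These are likenesses over 3 groups and say nothing of a shared role.

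Genes around the members were counted beside the 19.5% of all genes called up and 19.2% called down after Con A, without a test of any list. Genes with fewer than 2 Control mice at 64 could be in the table only with the help of injected mice, so that their being higher there was partly set by this minimum. Of 11 further chains that partner members or act beside them in liver, 5 were in the table, 2 were called up and 1 down. Il22ra1, which pairs with Il10rb to receive interleukin-22, rose by 1.47 (adjusted p = 0.00445) and was lower with the cells than without, by a log2 fold change of -1.34 (adjusted p = 0.0369). Its values were 32, 120, 48 and 69 in Control mice, 211, 106, 200 and 176 in Con A + PBS and 55, 56, 58 and 102 in cell-treated mice, so the injected groups did not overlap. Il2rg, the common γ chain that pairs with Il4ra on blood cells, ran from 49 to 101 in Control and from 103 to 188 in Con A + PBS mice, and just 1 Control mouse reached 64. Il11ra1, the interleukin-11 chain that pairs with gp130, had a log2 fold change of -0.95 (adjusted p = 0.000456). Of 20 other chains of the same receptor classes, 10 were in the table, and 3 of these had fewer than 2 Control mice at 64, so no count of calls is given. Lepr, the leptin receptor, had a log2 fold change of 2.75 (adjusted p = 0.00103). The mouse Con A + PBS replicate 4 stood at 5255 for Lepr against 596 to 1820 in the others of its group. Csf2rb, a chain best known from myeloid cells, rose by 1.68 (adjusted p = 5.36e-05) and was called down with the cells (-0.91, adjusted p = 0.0277). So was F3 (-1.17, adjusted p = 0.0478), tissue factor, a coagulation protein of the same fold that was named after its values were seen. F3 was at 84, 53, 66 and 200 in Con A + PBS mice, the last being replicate 4. In cell-treated mice it was at 32, 50, 43 and 32, so that 0 of them reached 64. It was not called after Con A (0.62, adjusted p = 0.153). Il2rb ran from 16 to 32 in Control, 80 to 123 in Con A + PBS and 34 to 66 in cell-treated mice, and Il3ra from 19 to 36, 48 to 104 and 52 to 83. Both had 0 Control mice at 64.

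Most ligands of these receptors were not among the genes measured here, with 3 of 20 in the table. Lif, the ligand of Lifr, was at 1, 2, 0 and 0 in Control mice, 68, 54, 42 and 84 in Con A + PBS and 16, 6, 10 and 18 in cell-treated mice. It was in the table through 2 Con A + PBS mice alone, so its being highest in that group was set by the minimum, and no test or fold is given. Clcf1 rose by 0.99 after Con A (adjusted p = 0.0148) and Ctf1, cardiotrophin-1, fell from a mean of 101 ± 14.4 to 50 ± 7.48 (SD, n = 4 each, limma adjusted p = 0.00102). Both of these signal through gp130 and Lifr.

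All 4 Janus kinases were measured, and 1 was called after Con A, with a median log2 fold change of 0.37. Jak3, which works with Il2rg, rose by 0.62 (adjusted p = 0.00235). Jak1, the kinase that gp130, Il4ra and Ifngr1 use, was 0.34 higher after Con A (adjusted p = 0.00697) and had a log2 fold change of -0.38 with the cells (adjusted p = 0.0268), both under the fold required. Its 4 Con A + PBS mice lay between 1769 and 2006 and did not overlap either Control, at 1342 to 1600, or cell-treated mice, at 1400 to 1540. Jak2 was 0.41 higher after Con A (adjusted p = 0.0112) and Tyk2 was 0.03 higher (adjusted p = 0.837), neither of which was called. Among STAT factors, Stat2, which type I interferons activate, rose by 1.17 (adjusted p = 2.93e-05). Stat3, which gp130 activates, rose by 1.00 (adjusted p = 0.00237), and with the cells its log2 fold change was -0.69 (adjusted p = 0.0579). Stat5b fell by 0.94 (adjusted p = 0.000293). Stat2, Stat3, Stat5b and the 4 Janus kinases were not called by limma between the injected groups, where Jak1 and Jak2 each had an unadjusted p below 0.05, as did Stat3.

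Of the feedback inhibitors, all 17 listed were in the table, 7 were called up, 2 down and 8 neither after Con A, beside 19.5% and 19.2% of all genes. The count includes Socs1, which had 0 Control mice at 64. Socs1, which blocks Janus kinases downstream of interferon-γ, stood at 7, 19, 13 and 10 in Control mice, 669, 396, 471 and 735 in Con A + PBS and 272, 149, 165 and 249 in cell-treated mice. None of these ranges overlapped. The log2 fold change was 5.46 after Con A, in part set by the minimum, and -1.44 with the cells (adjusted p = 0.0224), where all mice of both groups were above it. Usp18, which binds Ifnar2 and dampens type I interferon signals, rose by 3.54 (adjusted p = 2.13e-07) and then had -0.71 with the cells (adjusted p = 0.0495). For Usp18 the injected groups overlapped, at 1442 to 2388 in Con A + PBS and 812 to 1748 in cell-treated mice. Socs3, which binds gp130 and blocks its signals, rose by 2.15 (adjusted p = 0.000278), and between the injected groups it had -0.49 (adjusted p = 0.345). Socs2, a brake on growth hormone signals, fell by 1.92 (adjusted p = 0.000212). The third of the 17 inhibitors called down with the cells, beside 4.38% of all genes, was Ptpn11, at -0.85 (adjusted p = 0.0331). It is a phosphatase that was named after its values were seen. Of 9 genes for shedding and turnover of receptor chains, 8 were in the table and 4 were called up, with a median of 0.56. They were Rhbdf2 (1.37), which guides the sheddase Adam17 to the cell surface, Cblb (1.01) and Fbxw11 (0.78), both parts of ubiquitin ligases, and Adam10 (0.59), itself a sheddase. With the cells, Rhbdf2 (-0.81, adjusted p = 0.025) and Fbxw11 (-0.62, adjusted p = 0.0462) were called down, beside the same 4.38%. Fbxw11 was just above the fold required, at 1.53-fold.

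**Figure D5:**
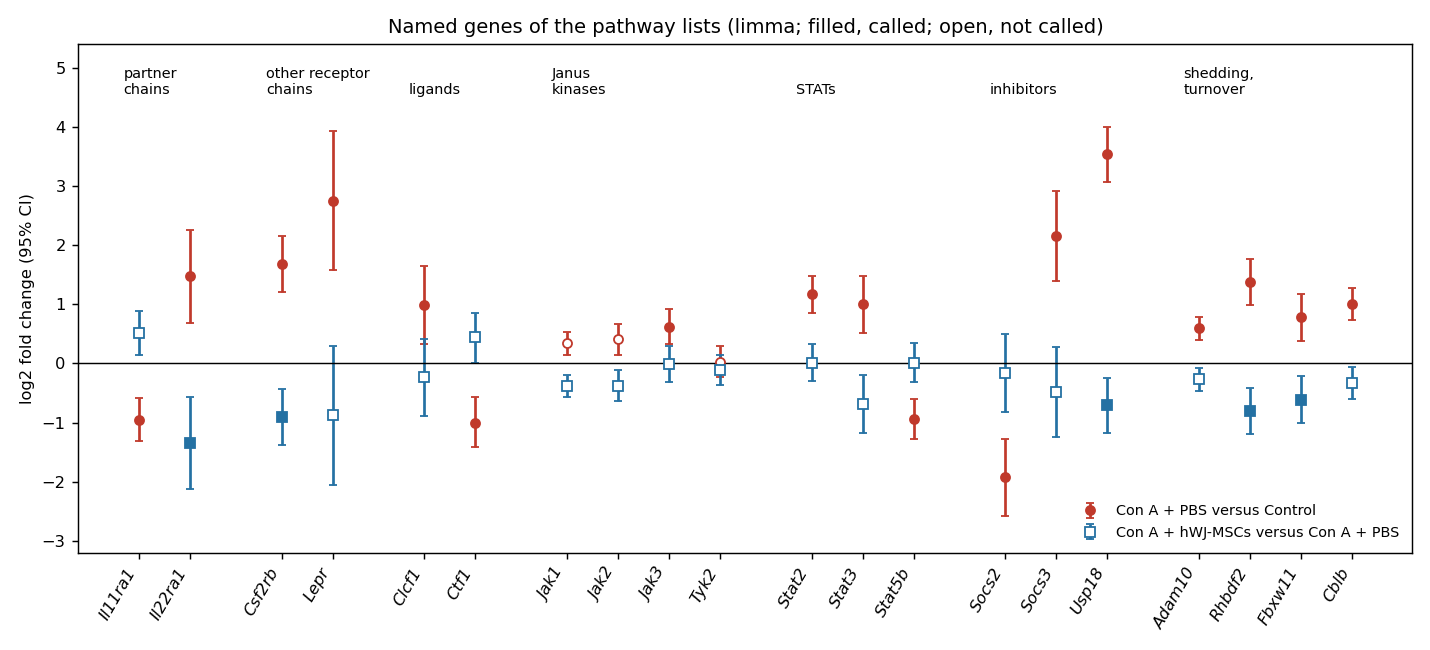
Log2 fold change (vertical axis) with its 95% confidence interval for genes of the pathway lists named in the text, other than those with fewer than 2 Control mice at 64 and those named after their values were seen. Circles are Con A + PBS against Control mice, squares are cell-treated against Con A + PBS mice, and filled symbols were called, with Usp18 at 3.54 and -0.71.

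Some markers of liver cell types were also called after Con A, where 19.5% of all genes were called up and 19.2% down. For lists so short, the counts of hepatocyte, stellate cell and cholangiocyte markers were close to these shares. In bulk tissue fewer cells of a type and less RNA per cell cannot be told apart. The summed values of 10 hepatocyte markers ran from 906475 to 1199327 in Control mice, 740861 to 806607 in Con A + PBS and 780874 to 793494 in cell-treated mice, with 3 called down after Con A and none up. For 10 markers of Kupffer cells and macrophages the sums were 5813 to 9268, 1801 to 2676 and 906 to 2583, with 9 down and 1 up, but 2 of them, Vsig4 and Timd4, reached 64 in at least 2 mice in the Control group alone, so that their fall was partly set by the minimum. For 10 sinusoidal endothelial markers they were 3560 to 5105, 1710 to 2416 and 2046 to 2720, with 7 down and 1 up, and the same limit held for 3 of them, Clec4g, Oit3 and Tek. Monocyte and neutrophil markers went the other way, with sums of 1036 to 1503, 1894 to 3171 and 1969 to 3316 over 10 genes, 9 up and 1 down, but 6 of the 10 had fewer than 2 Control mice at 64. The 4 lymphocyte markers in the table, of 16 listed, summed to 31 to 62 in Control, 284 to 486 in Con A + PBS and 292 to 540 in cell-treated mice, and all 4 were in the table only through the injected mice, so their direction was set by the minimum. Of 9 stellate cell and fibroblast markers 3 were called down, with sums of 5366 to 8568, 6594 to 7693 and 4990 to 10858, and of 4 cholangiocyte markers 1 was called up, with 2336 to 4493, 2396 to 13277 and 2249 to 6488. Retnlg, Cd8a and Cftr were each at 0 in 1 mouse. Between the injected groups, the markers called were sinusoidal endothelial, with 1 up and 2 down, beside 4.20% and 4.38% of all genes. The part of these shifts in the levels of the receptor chains was not tested.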

How the data were processed

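Poly-A RNA of 12 mouse livers was sequenced as paired reads of 150 bases. The submitters' processing notes list Bowtie2 2.2.1, RSEM 1.2.18 and mm10, and the study's methods name DESeq2 for differential expression. Each deposited value is a score per gene and mouse, a whole number that the authors had already normalised between mice by a step not given in the sources used here. These are not counts: totals ran only from 17649654 to 17657159 and quartiles were nearly equal in all mice, so depth is unknown and no counting error can be given. Genes that never reached 64 in at least 2 mice are not in the table, and no per-sample column was left out (0).

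Values were fitted as log2(value + 1) with limma 3.58.1 (lmFit and eBayes with a trend) in R 4.3.3, all 12 mice in 1 model without covariates, with Benjamini-Hochberg adjustment over 11289 genes. Folds are on that scale. Genes were called above a fold change of 1.5 if the adjusted p was under 0.05. For raw counts another test was planned, which did not apply. The fit was tested on simulated data.

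The members and gene lists were chosen with earlier results of these data known. Named were all members, up to 4 called genes per list with the largest changes, every Janus kinase, neighbours within 200 kb and the 2 most alike genes per called member. Of the genes so chosen, 1 is not reported here. Transcripts (11168 of 11289 found) and lengths came from GENCODE M21, and promoters from RefSeq GRCm38.p6. Alternatives covered the pseudocount, a filter, centring, the trend, the mice fitted, the thresholds, a replicate block and each mouse left out. Python 3.11.15, pandas 2.3.3, numpy 2.4.6 and matplotlib 3.10.9 made summaries and plots.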

Additional observations from a re-analysis of the deposited data

Results flagged for a closer look

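In 9 of 132 groups of 4 mice examined, 1 mouse lay so far from the other 3 that its gap, as a share of the group's range, passed Dixon's 95% critical value. Chance gives this in about 1 in 20 groups.

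Among the receptor chains, Lifr was at 5704 in Control replicate 3 against 3386 to 3728 in the other Control mice, and at 1600 in Con A + hWJ-MSCs replicate 2 against 1026 to 1095. Ifngr2 was at 291 in Con A + PBS replicate 4 against 468 to 498, and Ifnar1 at 630 in Control replicate 3 against 592 to 596.

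The log2 ratio of Osmr to Il6st per kb was -2.46 in Con A + hWJ-MSCs replicate 2 against -1.75 to -1.66. That of Ifngr1 to Ifngr2 was 2.12 in Con A + PBS replicate 4 against 0.92 to 1.07.

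Among the surrounding genes, Il22ra1 was at 102 in Con A + hWJ-MSCs replicate 4 against 55 to 58, Clcf1 at 268 in Con A + PBS replicate 4 against 106 to 122, and Stat2 at 1807 in Control replicate 3 against 1275 to 1322. Con A + PBS replicate 4 gave 3 of the 9, and Control replicate 3 gave 3.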

How the results depend on the processing

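No member changed direction in a call, and over single members 600 values kept their side of the threshold under the alternatives, 12 passed it newly and 18 no longer passed. With a fold change above 2 required, 1 member was called up (Osmr) and 1 down (Lifr) in each comparison with Control. Without a trend in the variance 1 was called down after Con A, since Il6ra had an adjusted p of 0.0542. Between the injected groups 1 member was called down in place of 0 with a pseudocount of 10, with only genes of a mean value of at least 100, and at an unadjusted p (Osmr each time), and without a fold criterion (Ifngr1). With 1 mouse left out, calls ranged from 3 to 5 up and 1 to 2 down after Con A, from 0 to 2 down between the injected groups, and from 1 to 2 up for cell-treated against Control mice. The causes were not tested.

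The labels do not say that a replicate number marks anything shared, and not every same-numbered pair was above 0.1, so the numbers were taken as names only, though the data do not settle whether some mice were paired. Same-numbered mice had correlations of their deviations from -0.118 to 0.375, with 4 of 12 above 0.1, those of different numbers from -0.385 to 0.141, and 6 of 12 mice were nearest to their own number. With the replicate block 1 member, Osmr, was called down between the injected groups (adjusted p = 0.0262), and the other counts of calls were 4 up and 2 down after Con A and 2 up and 2 down for cell-treated against Control mice. Count tests were planned only for raw counts and were not run. The unknown depth and 4 mice a group limit small differences.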
